A study of Saccharomyces cerevisiae with 2 samples.

Results

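Chromosome 3 of budding yeast (Saccharomyces cerevisiae) was examined in 2 lists of nucleosome calls, 1 from wild-type cells and 1 from cells in which FUN30 was deleted. All calls that the files place on chromosome 3 were taken. These were 1257 of 48019 calls in wild type and 1269 of 48135 in the fun30 deletion library. Calls with a centre from 10 to below 16 kb form the HML window, calls from 197 to below 202 kb the MAT window, and calls from 291 to below 296 kb the HMR window. The other calls of the chromosome are the background, with 1244 calls in wild type and 1253 in the fun30 deletion library. Both strains are BY4741, a standard haploid laboratory strain that is known to be of mating type a and to lack LEU2, a leucine synthesis gene of chromosome 3. That deletion is shared by both libraries. The cultures were grown in rich medium and fixed with paraformaldehyde, and chromatin was cut with micrococcal nuclease, an enzyme that cuts between nucleosomes, before single-nucleosome DNA was sequenced. The genotypes are labelled wild type and fun30D, and there was 1 library of each. No value below has a replicate error, and genotypes were not tested against each other. Genotype, culture, digestion and library preparation differ together between the libraries and cannot be told apart.

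The product of FUN30 is a chromatin remodeller that uses ATP to move nucleosomes and is known to take part in gene silencing in yeast. Chromosome 3 carries the mating-type cassettes. MAT holds the expressed mating-type genes, and HML and HMR hold silent copies that serve as donors when the mating type is switched. Silencer elements next to HML and HMR are bound by the origin recognition complex, Rap1 and Abf1, which bring in the Sir proteins, and the silenced chromatin is known for well-ordered nucleosomes. The cassettes share sequence with each other. In the gene table of assembly R64 the genes HMLALPHA2 and MATALPHA2, which encode the repressor alpha2, are both 633 bp long, and HMLALPHA1 and MATALPHA1, which encode the activator alpha1, are both 528 bp long. HMRA1, which encodes the a1 protein that acts with alpha2 in diploids, is 487 bp long in that table. The table thus lists alpha genes at MAT, whereas BY4741 is of mating type a. The alpha genes are therefore not those at MAT in these cells. A short read from a shared segment matches more than 1 cassette. The sources used here do not give the aligned reference, the genome build or the treatment of reads that match several places. No call was therefore assigned to a gene, and all positions are centres in bp as deposited.

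The first question was what the silent loci looked like in each library. All 3 windows held few nucleosome calls in both libraries. The HML window held 2 calls in each, or 0.333 per kb. MAT held 9 calls in wild type (1.80 per kb) and 11 in the fun30 deletion library (2.20 per kb). HMR held 2 in wild type (0.40 per kb) and 3 in the mutant (0.600 per kb). Elsewhere on the chromosome there were 4.15 calls per kb in wild type versus 4.18 in the mutant. Of 46 other windows of 6 kb, only 1 had no more calls than HML, in each library. Of 57 other windows of 5 kb, 1 had no more calls than MAT in wild type versus 3 in the mutant, and for HMR this count was 1 in both libraries. These windows ran from 0 to 6.20 calls per kb in wild type at 5 kb, with a median of 4.40. The summed occupancy, in the authors' signal units per kb, was 0.0537 in wild type versus 0.0635 in the mutant at HML, 0.0515 and 0.0648 at HMR, and 0.447 and 0.466 at MAT. Windows of 5 kb elsewhere had a median of 1.26 in wild type versus 1.32 in the mutant, and those of 6 kb of 1.35 and 1.34.

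**Figure D1:**
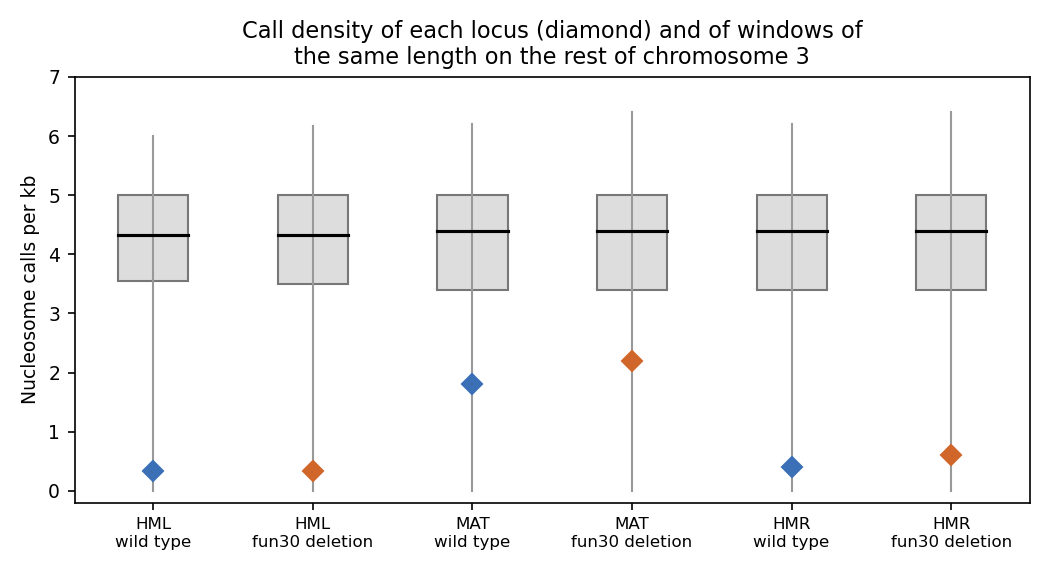
Nucleosome calls per kb in the HML, MAT and HMR windows (diamonds, blue for wild type and orange for the fun30 deletion) beside the other windows of the same length on chromosome 3 (box, quartiles; bar, median; line, lowest to highest; 46 windows of 6 kb or 57 of 5 kb). HML and HMR lie at 0.333 to 0.600 calls per kb and MAT at 1.80 and 2.20, all below the lower quartiles of 3.40 to 3.54.

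HML was empty over most of its length, and its edges were at nearly the same places in both libraries. No call lay between centres at 9398 and 15551 in wild type, a distance of 6153 bp, or between 9395 and 15550 in the mutant, a distance of 6155 bp. Call footprints covered 3.67% of the window in wild type versus 3.6% in the mutant. The nucleosome at the higher edge had an occupancy of 0.121 in wild type (15551), compared with 0.185 in the mutant (15550), and the one at the lower edge 0.181 (9398) and 0.199 (9395). All 4 values were below the median of 0.210 of each library, and the mutant value was the higher one at both edges. The second wild-type call inside the window was centred on 15967, with occupancy 0.201 and width 103 bp. Its partner lay 30 bp further, at 15997, with an occupancy of 0.196 and a width of 156 bp. The distance from the edge nucleosome to this pair was 416 bp in wild type, against 447 bp in the mutant. An unpaired wild-type call at 16056 (0.143, width 111 bp), just outside the window, lay on the other side of the mutant call. Wild-type calls thus lay on both sides of the wide mutant one, and the displacement depends on which is taken as the partner. Chromatin outside the window on that side was denser and more strongly occupied, with 8 wild-type and 10 mutant calls in 2 kb. The strongest of these was at 16586 in wild type (0.620), with its mutant partner at 16584 (0.798). On the side of the chromosome end there were 4 wild-type and 5 mutant calls in 2 kb, with highest occupancies of 0.184 (wild type) and 0.263 (mutant).

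MAT, the expressed cassette, also held a stretch without calls, but nucleosomes were called on both sides of it inside the window. The stretch ran from 198591 to 201298 in wild type (2707 bp) and from 198345 to 201300 in the mutant (2955 bp). Its lower edge differed because of a wild-type call at 198591 with an occupancy of 0.0854, near the lowest deposited value of 0.0824, that had no partner and lay 273 bp from the call at 198318. At the higher edge stood the nucleosome with the highest occupancy of the window. It had an occupancy of 0.727 in wild type (201298), compared with 0.621 in the mutant (201300), and its centre differed by 2 bp. On the lower side of the empty stretch, and separated from it by weaker calls, the second strongest nucleosome lay at 198152 in wild type (0.556) and its mutant partner at 198126 (0.465). It was displaced by 26 bp to lower coordinates. Its neighbour was displaced the other way, by 27 bp, from 198318 in wild type to 198345 in the mutant, with an occupancy of 0.189 in wild type versus 0.312 in the mutant. The mutant library alone had a weak call between them, at 198251 with 0.0850. The third displaced pair with both calls above the lower quartile of 0.133 lay at 197103 in wild type (0.160) and 197083 in the mutant (0.137).

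Of the 8 pairs at MAT, 4 were displaced by 20 bp or more (50%, exact 95% interval 15.7 to 84.3%), 2 in each direction. A pair is a wild-type and a mutant call that are each other's nearest call and at most 73 bp apart, and over chromosomes 1 to 16 26.6% of 40794 pairs were displaced this far. The interval for MAT includes that share, and intervals here cover counting error over calls only. The median log2 ratio of mutant to wild-type occupancy over these pairs was -0.22 (-0.46 to 0.72), and 0.08 over the 3 pairs left with borders 1 kb narrower. Beyond the strong nucleosome at the higher edge, the distance to the next call was 277 bp in wild type (to 201575), whereas the mutant had an unpaired call at 201497 (0.146) before the partner of that wild-type call, at 201630 (0.0959). A further distance without calls followed in both libraries, of 1128 bp after the wild-type call at 201575 and of 1166 bp after the mutant call at 201630. Another lay near the lower border, of 522 bp between wild-type calls (197103 to 197625) and 553 bp between mutant ones (197083 to 197636).

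HMR held only isolated weak calls. Those of wild type lay at 294157 (occupancy 0.0960) and 295359 (0.161), and those of the mutant at 291829 (0.100), 294060 (0.0851) and 295419 (0.139). Every one was below the library median of 0.210, and those at 294157, 291829 and 294060 were below the lower quartile. Only the calls at 295359 and 295419 formed a pair, 60 bp apart, and the calls at 294157 and 294060 were further apart than the pairing limit. The distances between centres were 3813 bp (290344 to 294157), 1202 bp and 2026 bp (295359 to 297385) in wild type. In the mutant they were 1657 bp (290172 to 291829), 2231 bp (291829 to 294060), 1359 bp and 1180 bp (295419 to 296599). The longest empty distance was thus shorter in the mutant, by the single weak call at 291829. Among calls above the lower quartile of occupancy it was 5259 bp in wild type versus 5247 bp in the mutant, so the difference was not seen among the stronger calls. This comparison was added after the values had been seen. Outside the window, the closest nucleosomes above the median on the lower side were an unpaired wild-type call at 290100 (0.316) and the pair at 290025 in wild type (0.394) and 290041 in the mutant (0.543). On the higher side they were at 297385 in wild type (0.356) and 297386 in the mutant (0.284).

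**Figure D2:**
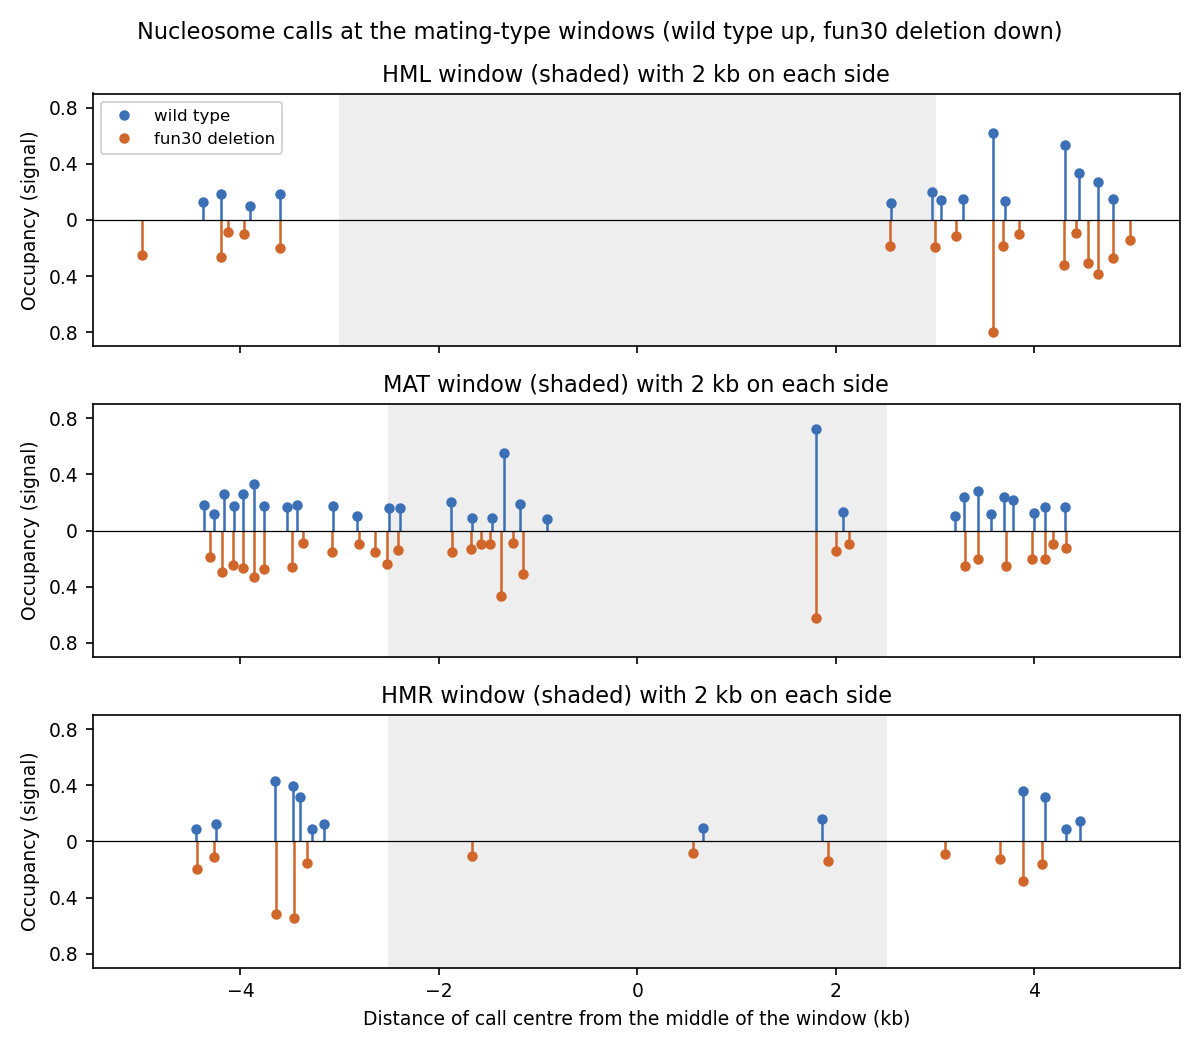
Occupancy (authors' signal) of every nucleosome call in the HML, MAT and HMR windows (shaded) and 2 kb on each side, by distance of the centre from the middle of the window; wild type points up and the fun30 deletion points down. The empty middle of HML and MAT has the same edges in both libraries to within 3 bp at HML and 2 bp at the higher edge of MAT, and HMR holds 2 wild-type and 3 mutant calls of at most 0.161.

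No pair in the 3 windows differed 2-fold or more in occupancy, among 2 pairs at HML, 8 at MAT and 1 at HMR. Of all pairs in the genome, 2.59% were that much higher in the mutant and 2.29% that much lower. The interval for MAT, 0 to 36.9% in each direction, includes both shares. No unpaired call in the windows was above the median occupancy of its library. At MAT 1 of 9 wild-type calls and 3 of 11 mutant calls were unpaired, at HMR 1 of 2 and 2 of 3, and at HML 0 of 2 in each library. In the genome 15.0% of wild-type and 15.2% of mutant calls were unpaired. Of the unpaired calls on the other chromosomes, 772 of 7055 in wild type and 674 of 7156 in the mutant were above the library median. With so few pairs and calls, neither result can tell the windows from the genome. With 2 pairs at HML and 1 at HMR, a change in the share of displaced nucleosomes was not detectable there. A repeat of the call pattern from one cassette to another could not be examined either. At a tolerance of 3 bp at most 1 call of a window coincided with a call of another at any fixed offset. The part of shared sequence in the missing calls was not tested.

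The empty stretches were set beside all distances between neighbouring calls. On chromosome 3, 25 of 1256 wild-type distances were 1 kb or more (1.99%, 1.29 to 2.92%) and 23 of 1268 mutant ones (1.81%, 1.15 to 2.71%). Over chromosomes 1 to 16 these shares were 1.24% and 1.23%. Leaving out distances that touch the 3 windows, 19 of 1240 remained in wild type (1.53%, 0.925 to 2.38%) and 16 of 1249 in the mutant (1.28%, 0.734 to 2.07%), both with intervals that include the genome share. Of the wild-type total of 53498 bp in such distances, 31.8% belonged to distances that touch the windows, and of the mutant total of 48095 bp, 34.7%. They made up 16.9% of the chromosome's span in wild type versus 15.2% in the mutant, second to chromosome 1 in both libraries. The HML distance was the second longest on the chromosome in both libraries, and stood at rank 45 in the genome in wild type versus 46 in the mutant. The MAT distance stood at rank 69 and 62, and the longest HMR distance at rank 56 and 86.

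Most long distances were shared between the libraries. Of the 25 in wild type, 17 overlapped a distance between neighbouring mutant calls by 1 kb or more, and of the 23 in the mutant, 18 did so with wild type. The longest on the chromosome lay outside the windows, from 83936 to 92602 in wild type (8666 bp) and from 83958 to 92591 in the mutant (8633 bp). Whether it includes the place of the deleted LEU2 was not tested, since gene positions on the files' build were not used. The third longest ran from 148501 to 152903 in wild type (4402 bp) and from 148502 to 152360 in the mutant (3858 bp). The others of 2 kb or more outside the windows were not shared. In wild type a distance of 2405 bp ran from 179761 to 182166, and in the mutant one of 2049 bp ran from 114197 to 116246, where the wild-type distance was 1207 bp (113955 to 115162).

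A row of calls in the mutant library alone overlapped the wild-type distance of 2405 bp. From 180738 to 182454 it held 7 consecutive calls without a wild-type partner, all but the last within that distance, at 180738, 180886, 181258, 181685, 181856, 182010 and 182454. Their occupancies ran from 0.0848 to 0.153, with a median of 0.0960, so that all but the call at 182010 (0.153) lay below the lower quartile. In wild type, calls at 182166 (0.100) and 182287 (0.0912) within the same stretch had no partner either. The longest run of unpaired wild-type calls on the chromosome held 3 calls, from 147088 to 147410. Most of these values lie near the lowest deposited one, and the part of the detection limit was not tested.

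Outside the mating-type windows, nucleosomes of chromosome 3 were more strongly occupied than those of most chromosomes. The median occupancy of all calls on the chromosome was 0.243 in wild type versus 0.246 in the mutant, against 0.210 for the other chromosomes in both libraries. It ranked second of 16 chromosomes in both, after chromosome 1. Of the wild-type calls 56.6% (53.8 to 59.3%) were above the library median, and of the mutant calls 56.8% (54.0 to 59.6%). On the other chromosomes it was 49.8% in both libraries. The scale of the values is matched between the libraries, so only the distribution of occupancy along the genome can be compared, not its total. Chromosome 3 is among the shortest, with 316 kb between its first and last calls. Across the 16 chromosomes the median occupancy was lower on longer chromosomes in both libraries, with r = -0.89 (wild type) and -0.90 (mutant) against the logarithm of length (rho = -0.90 and -0.89). The points share a library and its scaling, and base composition was not examined, so this is a description only.

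**Figure D3:**
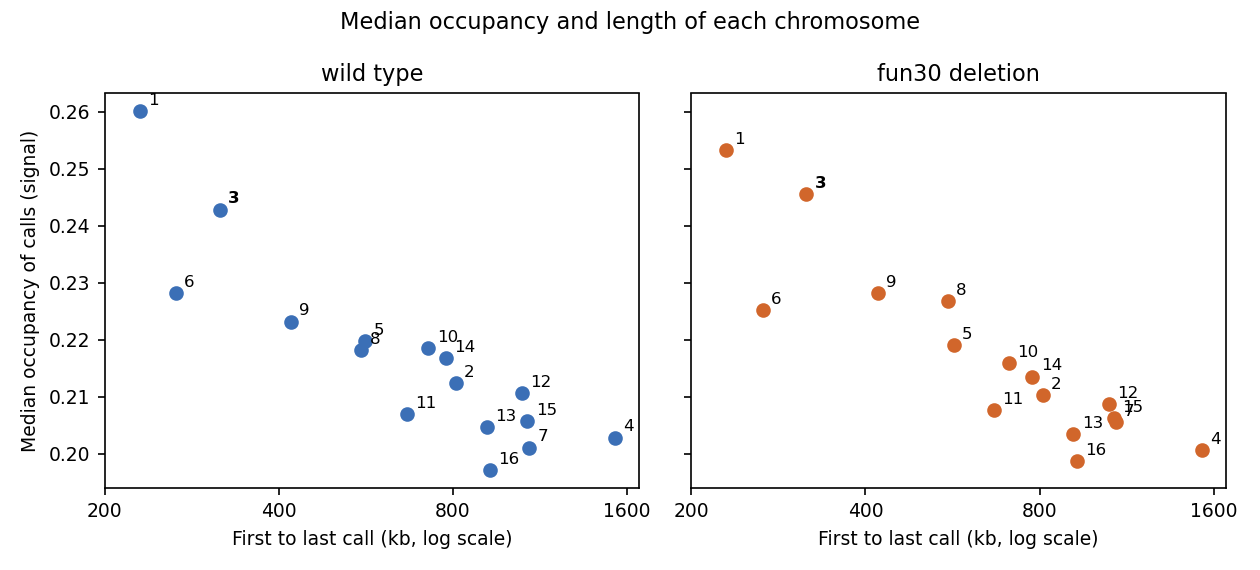
Median occupancy of nucleosome calls (authors' signal; the axis does not start at 0) against the length from first to last call (kb, log scale) for each of 16 chromosomes in each library, with the chromosome number beside each point. Chromosome 3, in bold, has the second highest median in both libraries, 0.243 and 0.246, after chromosome 1 with 0.260 and 0.253.

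Occupancy varied along the chromosome in the same way in both libraries. In 16 windows of 20 kb the median ran from 0.174 to 0.381 in wild type and from 0.150 to 0.432 in the mutant, and the medians of the libraries correlated with r = 0.98 (rho = 0.94). Stretches of high occupancy lay at 40 to 80 kb, with medians of 0.348 in wild type versus 0.386 in the mutant, and at 200 to 280 kb, with 0.314 and 0.305. Between them, from 80 to 200 kb, the medians were 0.193 and 0.200, and from 280 kb to the end 0.181 and 0.158. These borders were drawn after the profile had been seen. The window from 240 to 260 kb had the highest median in both libraries. It was also the only one of 16 whose interval for the median log2 ratio excluded 0, with 0.17 (0.03 to 0.25) over 80 pairs. These intervals were not adjusted for the number of windows, so this does not set the window apart. The mutant had the higher window median in 11 of 16.

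The nucleosome with the highest occupancy of the chromosome lay at 105956 in wild type (3.86) and 105957 in the mutant (4.29). It was followed by those at 214419 in both libraries (3.58 in wild type versus 3.76 in the mutant) and at 252274 in wild type (3.35) and 252275 in the mutant (3.85). All 3 were displaced by at most 1 bp. In each the mutant value was the higher, by 1.05 to 1.15 times. The first lay outside the 2 stretches of high occupancy.

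Displacement between the libraries was slightly less frequent on chromosome 3 than in the genome, within counting error. Of 1087 pairs 272 were displaced by 20 bp or more (25.02%, 22.5 to 27.7%), against the genome share of 26.6%. Outside the windows it was 266 of 1076 (24.7%, 22.2 to 27.4%). Pairs were displaced by a median of 8 bp (quartiles 2 and 19.5 bp), and 41.5% of pairs (38.5 to 44.5%) lay within 5 bp, against 37.8% on the other chromosomes. Of the displaced pairs 125 moved to higher and 147 to lower coordinates. In each of 5 classes of mean occupancy, with limits set on all pairs of the genome, the share displaced on chromosome 3 was near that elsewhere. In the lowest class it was 50.3% (42.9 to 57.6%) against 43.6% on the other chromosomes, and in the highest 5.11% (2.95 to 8.17%) against 7.26%. The highest class held 28.8% of the pairs of chromosome 3 and 19.8% of those elsewhere.

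Along the chromosome, displaced pairs were fewest where occupancy was high. The share was 17.3% (13.5 to 21.8%) at 200 to 280 kb and 23.0% (17.3 to 29.7%) at 40 to 80 kb, 29.7% (24.998 to 34.7%) from 80 to 200 kb and 35.9% (25.3 to 47.6%) beyond 280 kb. Over the 16 windows it correlated with the wild-type median occupancy with r = -0.72 (rho = -0.73). When both high stretches are pooled and compared with the rest within classes of occupancy, the shares were closer. They were 38.4% (29.8 to 47.5%) and 43.8% (37.4 to 50.3%) in the lower 2 classes, 22.7% (16.99 to 29.2%) and 27.4% (21.6 to 33.9%) in the middle 2, and 5.50% (2.88 to 9.42%) and 4.21% (1.16 to 10.4%) in the highest. Within 20 kb of the first or last call, which takes in HML, 29 of 86 pairs were displaced (33.7%, 23.9 to 44.7%).

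**Figure D4:**
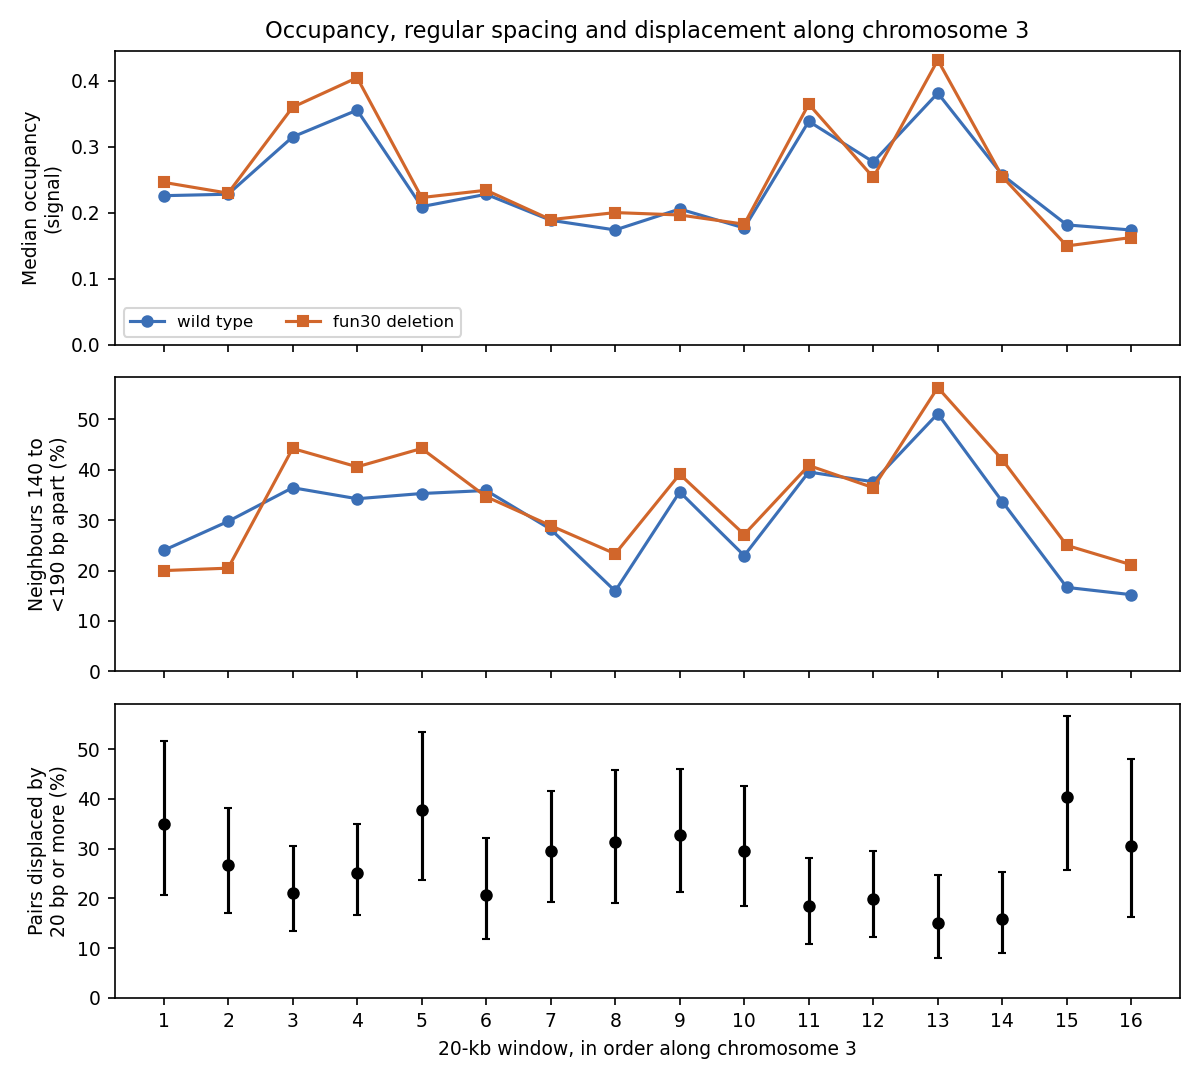
Median occupancy (authors' signal), share of distances between neighbours that were 140 to below 190 bp, and share of pairs displaced by 20 bp or more, in 16 windows of 20 kb in their order along chromosome 3; circles are wild type, squares the fun30 deletion, and bars in the lowest panel exact 95% intervals for counting error. Both libraries have high occupancy in windows 3, 4, 11 and 13, and the displaced share is lowest in window 13 (15%) and highest in window 15 (40.5%).

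The largest displacements among nucleosomes above the lower quartile in both libraries were 72, 69 and 62 bp. At the first, the wild-type call at 51242 had an occupancy of 0.175 and a width of 138 bp, and its mutant partner at 51170 an occupancy of 0.425 and a width of 105 bp. An unpaired wild-type call at 51092 with an occupancy of 0.554 lay 78 bp on the other side of that mutant call. Thus 2 wild-type calls surrounded the mutant one, and the displacement depends on which of them is taken as the partner. The others were from 72002 (0.165, width 178 bp) to 72071 (0.156, width 104 bp), and from 134650 (0.175) to 134588 (0.180).

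Large differences in occupancy were about as frequent on chromosome 3 as in the genome, within counting error. Of the 1087 pairs 19 were 2-fold or more higher in the mutant (1.75%, 1.06 to 2.72%) and 27 were 2-fold or more lower (2.48%, 1.64 to 3.59%). In the genome the shares were 2.59% and 2.29%, each inside the interval for chromosome 3. The median log2 ratio on the chromosome was 0.01 (-0.03 to 0.05), with an SD of 0.49 over pairs, and across pairs the 2 libraries' log2 occupancies had a correlation of r = 0.91, against 0.88 elsewhere. Among pairs above the lower quartile, the largest increase was 2.79-fold, from 0.148 at 2997 in wild type to 0.413 at 3019 in the mutant, close to the chromosome's end. It was followed by increases from 0.201 at 162174 to 0.515 at 162173 (2.56-fold), and from 0.173 at 31632 to 0.431 at 31623 (2.49-fold). The largest decrease among these pairs was 2.67-fold, from 1.198 at 60552 in wild type to 0.449 at 60497 in the mutant. Its displacement was 55 bp. The next were from 0.468 at 133034 to 0.179 at 133040 (2.62-fold) and from 0.362 at 211562 to 0.157 at 211565 (2.30-fold). These increases and decreases were picked among pairs outside the mating-type windows, so their places say nothing about the windows. The filter also left out pairs with a weak call in either library. Beyond the HML window such a pair fell from 0.331 at 17454 in wild type to 0.0916 at 17419 in the mutant (log2 ratio -1.85). Beyond the HMR window another rose from 0.0875 at 289057 to 0.198 at 289060 (log2 ratio 1.17).

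Calls without a partner were as frequent as elsewhere or slightly rarer. They numbered 170 in wild type (13.5%, 11.7 to 15.5%), where the genome share was 15.0%, and 182 in the mutant (14.3%, 12.5 to 16.4%), where it was 15.2%. Their median occupancies were 0.119 in wild type versus 0.112 in the mutant, against 0.274 and 0.279 for paired calls of the chromosome. On the other chromosomes, 772 of 7055 unpaired wild-type calls and 674 of 7156 unpaired mutant calls were above the library median. On chromosome 3 it was 23 of 170 in wild type versus 28 of 182 in the mutant. The strongest in wild type was the first call of the chromosome, at 91 with an occupancy of 0.828, and the nearest mutant call lay 81 bp away at 172 (1.70). Next were 51092 (0.554), described above, and 62410 (0.40), 94 bp from a mutant call at 62316 (1.198). In the mutant the strongest was at 487, near the same end (0.753). It was followed by 78838 (0.516), which lay 278 bp from the nearest wild-type call, and by 310972 (0.487), 173 bp from a weak wild-type call at 311145 (0.118). Chromosome ends hold repeated sequence, and its part in these calls was not tested.

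Neighbouring nucleosomes on chromosome 3 were spaced regularly more often than on most chromosomes. Distances from 140 to below 190 bp made up 32.2% of 1256 in wild type (29.6 to 34.8%) and 35.3% of 1268 in the mutant (32.7 to 38.0%), where the genome shares were 29.3% and 31.5%. These shares ranked second of 16 chromosomes in wild type and first in the mutant. The difference between the libraries on the chromosome was 3.17 percentage points, with an interval that included 0 (-0.52 to 6.85). The mutant share was the higher one on 16 of 16 chromosomes, with an interval for the difference that included 0 on most of them. The chromosomes of a library share its culture, digestion and calling, so they are not replicates of the genotype. On chromosome 3 the difference was 1.93 points (-2.25 to 6.11) among calls above the lower quartile of occupancy and 1.37 points (-1.87 to 4.62) for distances from 150 to below 180 bp. Among the 746 of 2524 distances whose neighbours were both 100 to 125 bp wide it was -2.32 points (-9.45 to 4.81). These alternatives were added after the values had been seen, and every interval included 0. Distances below 120 bp made up 19.98% in wild type versus 18.0% in the mutant. The most frequent distance was 164 bp in wild type versus 168 bp in the mutant, and 162 and 163 bp on the other chromosomes. No error was computed for it. The median of distances from 140 to below 190 bp was 164 bp in wild type versus 165 bp in the mutant, and 164 bp in both libraries on the other chromosomes.

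**Figure D5:**
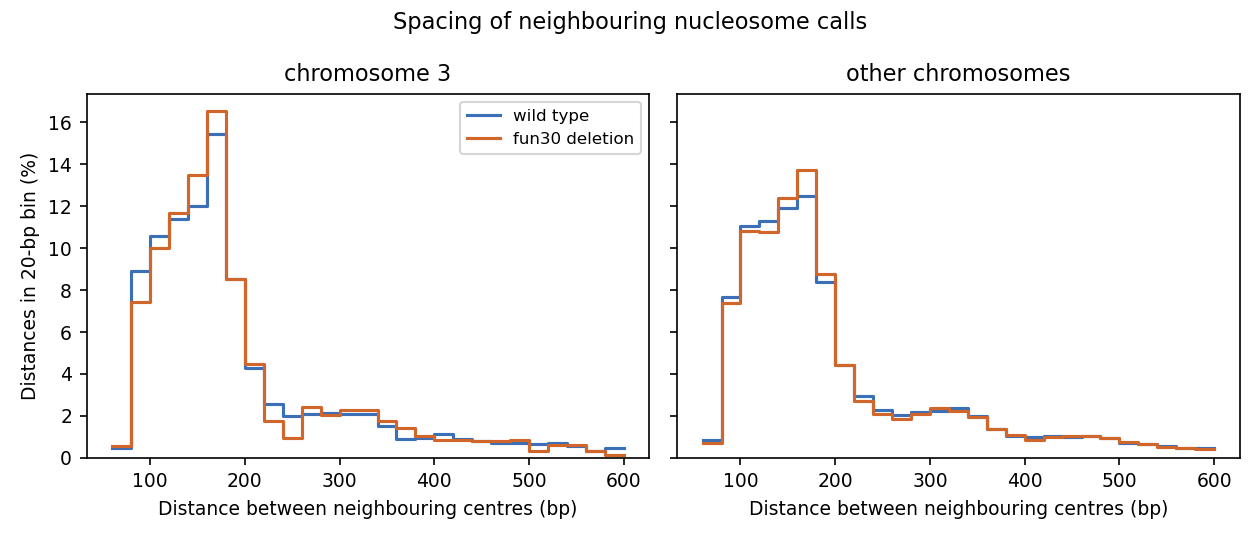
Share of distances between neighbouring call centres in bins of 20 bp for chromosome 3 and for the other chromosomes, in wild type (blue) and the fun30 deletion (orange). On chromosome 3 the bin from 160 to below 180 bp is the highest, with 15.4% in wild type versus 16.6% in the mutant.

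Regular spacing went with occupancy along the chromosome. Over the 16 windows the share correlated with the median occupancy with r = 0.80 in wild type (rho = 0.83) and 0.72 in the mutant (rho = 0.61). At 200 to 280 kb it was 39.9% in wild type (35.0 to 45.1%) and 43.1% in the mutant (38.1 to 48.2%), and from 80 to 200 kb 29.0% (24.7 to 33.5%) and 32.5% (28.0 to 37.2%). The mutant had the higher share in 12 of 16 windows. In the first 40 kb, which hold HML, it had the lower share, with 20.9% (14.4 to 28.8%) against 28.1% (20.8 to 36.5%), and the intervals overlapped. Beyond 280 kb, where HMR lies, it was 22.9% (15.4 to 32.0%) against 15.8% in wild type (9.12 to 24.7%).

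Rows of 5 or more nucleosomes at regular spacing held 10.98% of the wild-type calls of chromosome 3 (9.30 to 12.8%) and 11.7% of the mutant calls (9.95 to 13.6%). On the other chromosomes they held 5.55% (5.34 to 5.76%) and 6.84% (6.61 to 7.07%). Rows of 6 or more numbered 9 in wild type, with 5.01% of its calls on the chromosome (3.87 to 6.37%), and 15 in the mutant, with 8.12% (6.67 to 9.76%). Elsewhere rows of that length held 2.25% and 3.01%. The mutant share on chromosome 3 was thus similar to that of wild type for rows of 5 or more, which numbered 24 in each library. For rows of 6 or more it was the higher value, as it was on the other chromosomes. The size of the difference thus depended on the length chosen. The calls of a row are not independent, so these intervals are too narrow. The longest row held 9 nucleosomes in both libraries, and in both it ran over the same place, from 251337 to 252578 in wild type and from 251336 to 252576 in the mutant, with a mean distance of 155 bp. Its nucleosomes included the one at 252274 with an occupancy of 3.35 in wild type. All 9 wild-type calls had a partner, and their centres differed by at most 9 bp, as at 251806 (mutant 251797) and 252426 (mutant 252417). The mutant had a second row of 9 from 214994 to 216350, with a mean distance of 169.5 bp and occupancies of 0.473 to 2.31. Its calls all had wild-type partners too, of which that at 215296 (mutant 215319) was 23 bp away. No row of 7 or more among the 4 longest of each library touched a mating-type window. MAT in wild type held 1 regular distance and the windows otherwise none, so no such row could lie inside a window.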

How the data were processed

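Mononucleosomal DNA of 2 libraries was sequenced, and the submitters' processing notes name Bowtie 0.12.7, a short-read aligner. Per the file headers, each row of the deposited lists gives a call's chromosome, centre, width and occupancy. Occupancy is used here as a signal whose unit the authors did not state. The sources used here do not give the genome build, the caller, its settings or the scaling. The deposited signal is not a read count, and depth is unknown, so a low signal and low depth cannot be told apart. At 1001 quantiles the signal differed between the libraries by at most 0.0177%, and its lowest value was 0.0824 in both. Nucleosomes with a weaker signal, if there were any, are not in the lists.

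Centres were paired on chromosomes 1 to 16, and 40794 pairs were found. Shares carry exact (Clopper-Pearson) 95% intervals, medians binomial order-statistic intervals, and differences of shares normal intervals. Footprints were taken as the width, centred on the centre. The most frequent distance was read from a smoothed curve with a bandwidth of 8 bp. The pairing was tested on simulated data in which only calls well apart from both neighbours were displaced, removed or changed in occupancy. Changes among closely spaced calls were not simulated. Calls were named by a rule: in each window the 3 strongest pairs, all distances of 220 bp or more, strong unpaired calls, displaced pairs above the lower quartile and 2-fold differences; elsewhere the 3 extremes of each kind. The runs of unpaired calls and the rows of regular spacing lie outside that rule. The windows, members and lists were chosen with earlier results of these data known. Alternatives were other pairing limits, displacement limits, occupancy filters, spacing ranges and window borders. No sequence is shown, because no genome was used here. Python 3.11.15, numpy 2.4.6, pandas 2.3.3, scipy 1.17.1 and matplotlib 3.10.9 were used.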

Additional observations from a re-analysis of the deposited data

How the results depend on the processing

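No paired analysis was possible because there was 1 library per genotype. Of 96 alternative values, 69 were unchanged, stayed within the counting interval, or stayed within 1.5 times a count or distance, and 27 moved. In the windows many intervals span most of the range, as 1.26 to 98.7% for displaced pairs at HML and 0 to 97.5% for wild-type regular spacing there. Staying within such an interval shows no stability. For medians without an interval, any change counted as a move. The causes of the moves below were not tested. Outside the windows, the displaced share of 24.7% became 21.6% with pairs up to 50 bp, 46.3% for 10 bp or more, 8.36% for 40 bp or more and 12.5% above the median occupancy. Unpaired shares became 16.96% in wild type and 17.6% in the mutant with pairs up to 50 bp, and 3.24% and 3.90% above the median. Regular spacing became 21.8% and 23.3% at 150 to below 180 bp. For displacements of 40 bp or more the share was 0% at HML and 12.5% at MAT. Unpaired shares at MAT were 0% in both libraries above the median. At HMR they were 100% in both with pairs up to 50 bp, and 0% in wild type with pairs up to 100 bp. The median log2 ratio became 0.13 at HML and 0.46 at HMR with borders 1 kb wider, where it turned positive, and -0.20 at HMR with pairs up to 100 bp. At MAT it turned positive, to 0.08 over 3 pairs, with borders 1 kb narrower. No value could be had for HML and HMR above the median. Coinciding calls rose from 1 to 2 between HML and MAT in wild type at 5 and 10 bp, and between MAT and HMR in both libraries at 10 bp. Added after the data had been seen: the longest mutant distance at HMR became 5247 bp above the lower quartile and 3590 bp among calls at least 100 bp wide. The spacing difference of 3.17 points became -2.32 with widths of 100 to 125 bp, and stayed positive under its other alternatives.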
